A study of Homo sapiens with 6 samples.

Results

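The clustered histone genes, which supply the linker histone H1 and the core histones H2A, H2B, H3 and H4 during DNA replication, were examined in K562 cells given a small interfering RNA (siRNA) and all-trans retinoic acid (ATRA). A probe set, a group of short array probes read as 1 value, was taken as a member when every gene symbol annotated to it was a clustered H1, H2A, H2B, H3 or H4 gene, and replacement variants such as H3-3A were left out. This gave 68 of the 54613 probe sets without controls, namely 7 for H1, 15 for H2A, 19 for H2B, 10 for H3, 15 for H4 and 2 that named both H2A and H3 genes. Of these, 48 named a single gene and 20 named several, so that 61 genes were covered and 42 of them had a probe set to themselves. Histone genes of a class are close copies, and 14 members carry the _x suffix that Affymetrix gives to probe sets whose probes can match other sequences, so a probe set that names 1 gene may also read its relatives, which was not tested. K562 is an established human cell line grown from the leukaemic cells of a patient with chronic myeloid leukaemia. Cells in all groups were nucleofected, with RNAi8 (the labels' name for the siRNA, at up to 200 nM) or with a scrambled RNA (scrRNA), and were treated 24 hours later. Experiments 1 and 3 received ATRA, experiment 2 received DMSO as the control, and each of the 3 experiments gave 1 siRNA array and 1 scrambled RNA array, 6 Affymetrix U133 Plus 2.0 arrays in all. The labels do not name the target of RNAi8, and the series title names PRAME, an antigen of testis and tumours that acts as a repressor of the retinoic acid receptor.

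Clustered histone genes lie in groups on the chromosomes, mostly side by side, and are transcribed in S phase, when new DNA has to be packed into nucleosomes. The nuclear protein NPAT, activated by cyclin E with its kinase, switches them on, and their transcripts end in a stem-loop bound by SLBP, the stem-loop binding protein, where those of other genes carry a poly(A) tail. Core histones form the body of the nucleosome and H1 binds the linker DNA between nucleosomes, while a few of these genes, among them H2AC6, H2BC5, H2BC12 and H2BC21, are known to give polyadenylated transcripts as well. Per the labels' protocols labelling used a kit for in vitro transcription from the 3' end, a method that primes on poly(A).

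PRAME, the gene the series is about, had log2 signals of 12.13, 12.14 and 12.10 with siRNA, against 13.00, 12.99 and 12.70 with scrambled RNA, in the order of the experiments. The siRNA and scrambled groups did not overlap, with a difference of -0.78 that passed limma's test with the experiment as a block (adjusted p = 0.0435) and not without it (adjusted p = 1). The arrays of experiment 3 stood apart from the other 4. Their correlation with those 4 over all probe sets was 0.979 to 0.982, against at least 0.996 among the other 4, and the gap between the 3' and 5' actin control probe sets was 2.98 with siRNA and 3.36 with scrambled RNA, against 0.63 to 0.92. The GAPDH gap was likewise 1.20 and 0.74 in experiment 3, against 0.03 to 0.08 elsewhere. For the poly(A) spike-in control probe sets, the median gap over 3 pairs was 2.93 and 3.06 in experiment 3, against 1.46 to 1.75 elsewhere. Array medians lay between 5.96 and 6.02. All 13 measured K562 markers averaged at least 5.99, the median of all values. So did 10 of the 20 measured markers of other cell types, which had a median level of 5.86. The brightest of these 20 were EPCAM, with a mean of 11.54, and CD3D, with 10.08.

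The members had mean log2 signals from 3.61 to 13.49, where a step of 1 is a factor of 2. Signals of different probe sets are not comparable as transcript levels, since each probe set has its own probes. Of the 68 members, 52 averaged at least 5.99 and 16 lay below it and are called dim here, among them 3 of H1, 2 of H2A, 3 of H2B, 4 of H3 and 4 of H4. A dim probe set was not shown to be above background. The genes given by the rule on signal were, for H1, H1-2 with a mean of 13.22, H1-3 with 8.63 and H1-4 with 6.63. For H2A they were the H2AC19 and H2AC18 pair (probe set 214290_s_at) with 12.93 and H2AC6 with 11.35, and for H2B they were H2BC12 with 13.49 and H2BC6 with 11.85. The H3 probe set that names 10 genes (206110_at) had 9.49, and the H4 probe set that names 14 genes (205967_at) had 12.96. The values of all members on the 6 arrays are shown in the heat map, in which the 2 columns of experiment 3 differ from the rest.

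**Figure D1:**
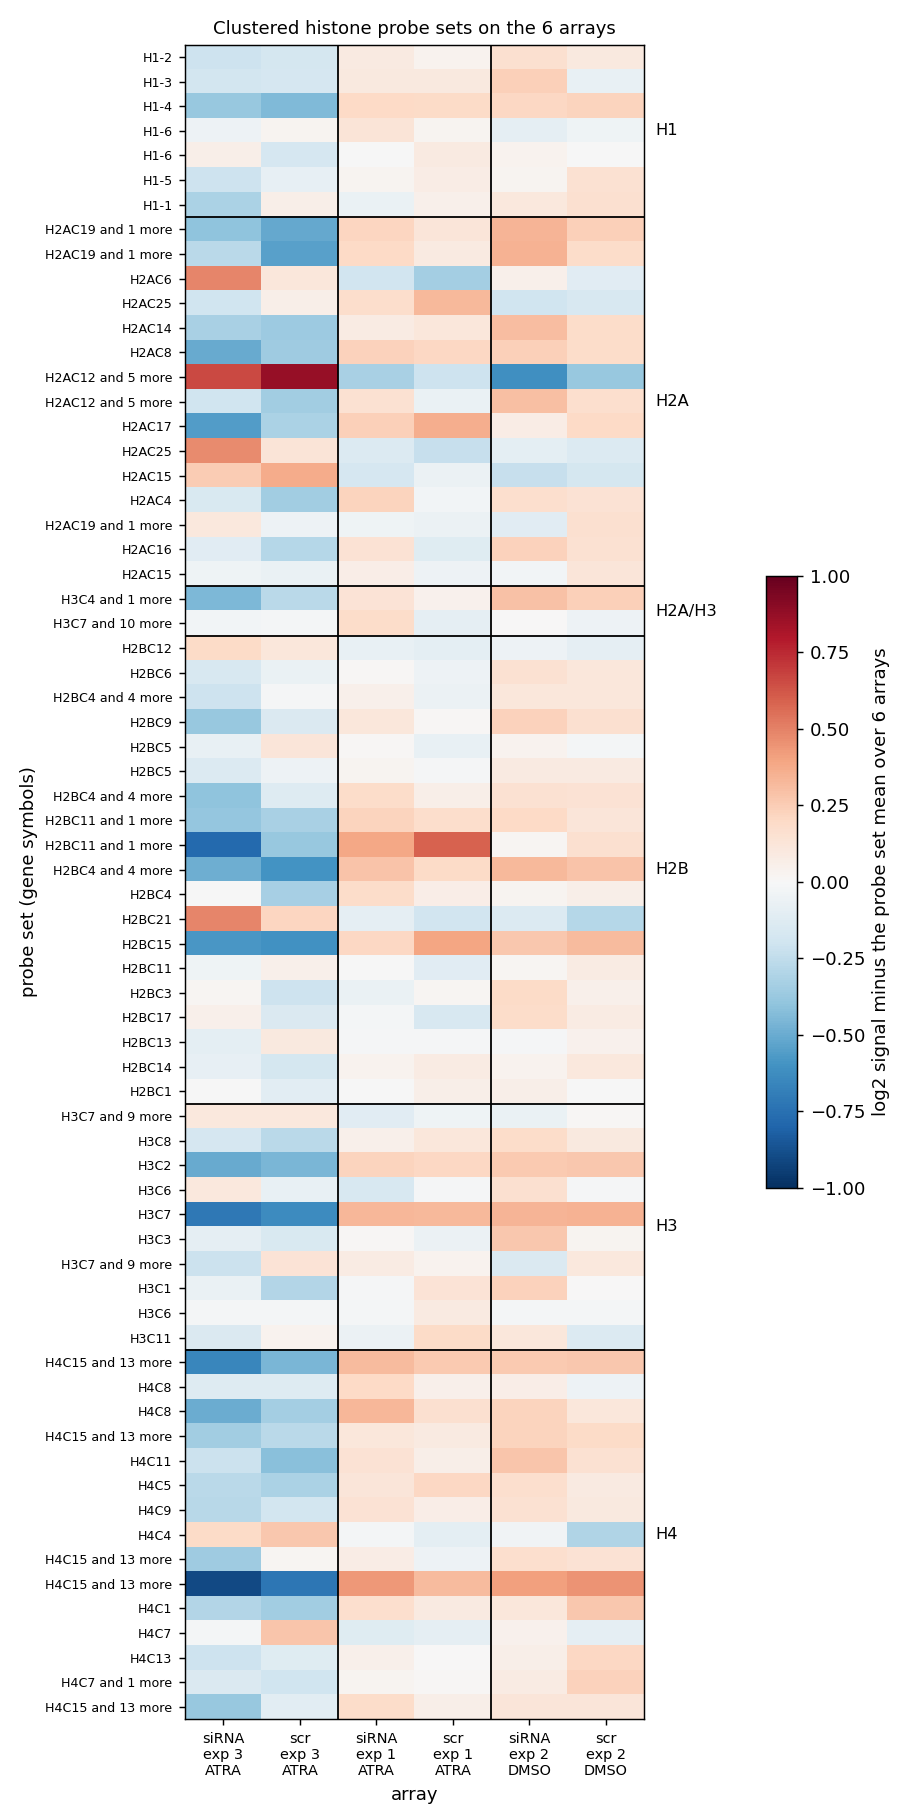
Log2 signal of each of the 68 clustered histone probe sets minus its own mean over the 6 arrays, with probe sets in rows by histone class and arrays in columns by experiment. Most rows are blue (below their mean) on both arrays of experiment 3, and a few, led by the 207156_at probe set of 6 H2A genes (labelled H2AC12 and 5 more), are red there.

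Promoters of clustered histone genes share short motifs, and those of the genes on which the results turn are shown here so that the members that moved in opposite directions can be compared. RefSeq's GRCh38.p14 windows, from 250 bases before to 50 after the gene start, were at hand for 64 clustered histone genes, 56 of them among the 61 covered here, and for 27305 genes in all (the first window listed for a gene). Searched on both strands, the TATA box letters TATAAA occurred in 65.6% of the clustered windows, against 11.95% of all windows. CCAAT occurred in 84.4%, against 35.7%, in every H1, H2A, H2B and H3 window and in 3 of the 13 H4 windows. The octamer ATTTGCAT occurred in 40.6%, against 1.80%, and was found in 11 of 16 H2A and 14 of 18 H2B windows. Windows of neighbouring genes can overlap, as those of H2AC6 and H2BC4 do, so a single match may be counted for both genes. The H1 box AAACACA occurred in all 6 H1 windows, against 5.76% of all windows. The windows below are written from 5′ to 3′ on the strand of the named gene in lower case, with these 4 motifs, or their reverse complements, in capitals. A TATA box match on one strand can overlap one on the other, and is then capitalised as 1 run. H2AC6 and H2BC15 are shown because each shares its upstream region with a neighbour whose difference lay on the other side of 0, H2BC12 and H2BC21 because they were higher in experiment 3, H3C7 because it was among the furthest down, and H1-2 and H4C5 as members of the 2 classes with other motif content.
H2AC6, chr6:26123922-26124221, plus strand: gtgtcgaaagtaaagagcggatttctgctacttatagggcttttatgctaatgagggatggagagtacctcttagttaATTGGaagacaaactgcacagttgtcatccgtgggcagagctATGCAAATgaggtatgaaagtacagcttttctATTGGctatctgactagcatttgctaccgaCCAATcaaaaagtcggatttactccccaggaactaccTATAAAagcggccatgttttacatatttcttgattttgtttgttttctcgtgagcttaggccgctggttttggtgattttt
H2BC15, chr6:27838319-27838618, plus strand: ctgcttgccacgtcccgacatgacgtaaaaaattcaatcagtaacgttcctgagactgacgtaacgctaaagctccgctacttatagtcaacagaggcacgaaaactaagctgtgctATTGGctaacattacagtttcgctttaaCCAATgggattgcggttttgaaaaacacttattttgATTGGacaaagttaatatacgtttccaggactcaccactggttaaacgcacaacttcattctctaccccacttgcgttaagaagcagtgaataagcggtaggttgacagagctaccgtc
H2BC12, chr6:27146809-27147108, minus strand: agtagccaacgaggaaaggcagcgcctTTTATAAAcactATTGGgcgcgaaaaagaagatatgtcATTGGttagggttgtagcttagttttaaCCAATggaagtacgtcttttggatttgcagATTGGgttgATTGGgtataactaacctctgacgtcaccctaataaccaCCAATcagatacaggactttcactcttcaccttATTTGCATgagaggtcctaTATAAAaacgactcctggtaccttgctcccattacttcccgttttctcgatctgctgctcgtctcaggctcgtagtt
H2BC21, chr1:149886633-149886932, minus strand: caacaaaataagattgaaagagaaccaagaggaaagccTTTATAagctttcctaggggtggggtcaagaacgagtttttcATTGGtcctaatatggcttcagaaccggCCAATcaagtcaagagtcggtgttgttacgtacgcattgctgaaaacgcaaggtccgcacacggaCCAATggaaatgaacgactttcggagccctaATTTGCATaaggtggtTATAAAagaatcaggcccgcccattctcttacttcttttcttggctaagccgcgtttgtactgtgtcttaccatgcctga
H3C7, chr6:26250586-26250885, minus strand: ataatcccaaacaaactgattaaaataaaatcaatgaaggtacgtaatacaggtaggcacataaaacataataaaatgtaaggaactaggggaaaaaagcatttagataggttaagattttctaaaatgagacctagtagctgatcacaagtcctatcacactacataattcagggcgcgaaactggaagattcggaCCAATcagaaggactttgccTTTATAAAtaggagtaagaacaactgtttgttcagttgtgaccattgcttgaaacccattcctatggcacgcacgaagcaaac
H1-2, chr6:26056421-26056720, minus strand: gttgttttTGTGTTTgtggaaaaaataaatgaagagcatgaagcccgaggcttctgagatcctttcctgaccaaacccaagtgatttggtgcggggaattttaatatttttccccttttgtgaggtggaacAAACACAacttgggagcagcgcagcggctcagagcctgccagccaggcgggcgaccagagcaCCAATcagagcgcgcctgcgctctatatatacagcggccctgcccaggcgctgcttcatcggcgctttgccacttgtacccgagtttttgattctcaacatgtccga
H4C5, chr6:26204360-26204659, plus strand: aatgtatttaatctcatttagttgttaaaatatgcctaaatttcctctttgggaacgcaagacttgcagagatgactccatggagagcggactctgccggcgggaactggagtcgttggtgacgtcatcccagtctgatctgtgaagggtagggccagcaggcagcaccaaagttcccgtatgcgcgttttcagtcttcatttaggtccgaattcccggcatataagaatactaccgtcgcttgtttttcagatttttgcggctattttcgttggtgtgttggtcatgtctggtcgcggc
The H2BC12 and H2BC21 windows, like that of H2AC6, hold the TATA box, the CCAAT box and the octamer, and all 3 genes were higher in experiment 3 than in experiment 1. The windows of H2AC8, H2AC14 and H2AC17, which were lower, hold the same 3, and that of H2AC15, which was higher, holds the CCAAT box alone. H3C7 has a TATA box and a CCAAT box but no octamer, H2BC15 has the CCAAT box alone of the 4, and H4C5 has none. A match describes the letters of the window and does not show that a factor bound there.

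The first comparison asks whether the siRNA changed histone gene expression. No member passed the test: with limma over all 54613 probe sets and treatment as a covariate, 0 of 68 had an adjusted p under 0.05, as did 0% of all probe sets, and 0 of 68 had an unadjusted p under 0.05, against 1.20% of all. The median difference over members was -0.01, against 0.00 over all probe sets, with 32 members above 0 and 36 below, and single members ranged from -0.25 to 0.23. The fit with treatment alone as a covariate does not use the pairing by experiment, so differences between experiments stay in its spread. The median SE over members was 0.14, against 0.07 with the experiment as a block. Its unadjusted p-values rest on that wider spread. With the block, 0 members passed limma's test (lowest adjusted p = 0.872), beside 0.00183% of all probe sets, which is PRAME alone. Unadjusted, 11 members had p under 0.05 with the block, 7 higher and 4 lower, which is 16.2% of members against 5.27% of all probe sets. The siRNA array was higher in all 3 experiments for 13 members (19.1%, against 12.3% of all probe sets) and lower in all 3 for 8 members (11.8%, against 11.3%). The 95% intervals of the 68 differences in the blocked fit lay between -0.40 and 0.36.

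The member furthest above 0 was H2AC6, a core H2A gene, with 11.16, 11.40 and 11.83 with siRNA, against 11.00, 11.23 and 11.46 with scrambled RNA in experiments 1 to 3. Within each experiment the siRNA array was the higher one, while the groups overlapped across experiments. The difference was 0.23 (SE 0.22), or with the block an SE of 0.06 and an adjusted p of 0.872. H2BC21, an H2B gene in the smaller cluster on chromosome 1, had 8.02, 7.97 and 8.59 with siRNA, against 7.91, 7.82 and 8.32 with scrambled RNA, again higher with siRNA in each experiment, with a difference of 0.17. Of the other members with the same sign throughout, those furthest up were the H2AC19 and H2AC18 pair (218280_x_at, 0.18), H2AC16 (0.17, dim) and the probe set 214542_x_at of 6 H2A genes (0.17). Furthest down was the H2BC11 and H2BC8 probe set 210387_at, with 9.55, 9.17 and 8.38 with siRNA, against 9.75, 9.32 and 8.78 with scrambled RNA. It was lower with siRNA in each experiment, at a mean difference of -0.25, and overlapped between the groups. The next were 207156_at of 6 H2A genes (-0.19), H1-1 (-0.18, dim), H2AC17 (-0.16) and H2AC25 (221582_at, -0.15). The 2 probe sets of the same 6 H2A genes thus lay on opposite sides of 0, and neither passed the test.

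**Figure D2:**
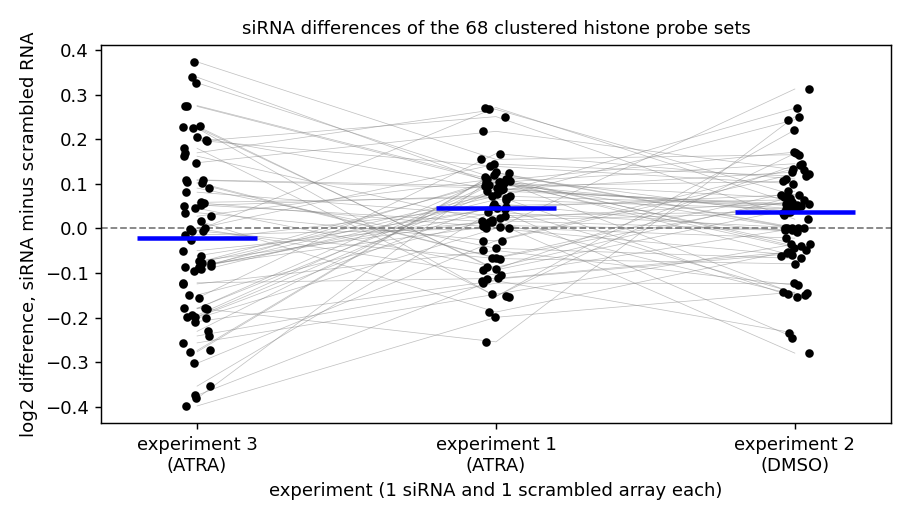
Log2 difference between the siRNA and the scrambled RNA array of each experiment for the 68 members (points, joined by a line per probe set), with the median as a blue bar. Experiment 3 has a median of -0.02, experiment 1 of 0.05 and experiment 2 of 0.04, and the points spread widest in experiment 3.

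Within the ATRA experiments, without the block, 0 members passed the test and 0 had an unadjusted p under 0.05, against 0.936% of all probe sets. With the experiment as a block in limma, 0 members passed too (lowest adjusted p = 0.865). Unadjusted, 8 of 68 members then had p under 0.05, 5 higher and 3 lower, beside 2671 of all 54613 probe sets. That fit had 1 residual degree of freedom. H2AC6 was again furthest up (0.26), followed by H2AC4 (0.22) and H2BC4 (0.22), and the H2BC11 and H2BC8 probe set 210387_at was furthest down (-0.30). The siRNA difference under ATRA minus that under DMSO passed for 0 members, with a median of -0.04. Unadjusted, 1 member had p under 0.05, the dim H3C11 probe set with a limma difference of -0.47 (adjusted p = 1), against 1.29% of all probe sets. By experiment, 29 members lay above 0 in experiment 3, 45 in experiment 1 and 40 in experiment 2.

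ATRA was set against DMSO on the means of the siRNA and scrambled arrays of each experiment, 2 experiments against 1. Most members lay lower in the ATRA arrays, but 0 passed the test and 0 had an unadjusted p under 0.05, against 0.835% of all probe sets. The median difference was -0.18 over members and -0.01 over all probe sets, with 15 members above 0 and 53 below. All 4 ATRA arrays lay below both DMSO arrays for 22 members (32.4%, against 11.8% of all probe sets), and all 4 lay above them for 2 members (2.94%, against 11.1%). Among the 22 were H1-2, H1-4, H2AC14, H2BC6, H2BC9, H3C2, H3C7 and H4C11, and the 2 were H2AC15 (239041_at) and the probe set 207156_at of 6 H2A genes. For some, experiment 1 was barely apart from experiment 2. Their nearest arrays had 6.526 and 6.533 for H3C7, 13.313 and 13.319 for H1-2, and 6.392 and 6.384 for H2AC15. The step was wider for others, such as H2BC6 with 11.87 and 11.96. The median was -0.05 for experiment 1 against experiment 2 alone and -0.27 for experiment 3 against experiment 2, and the shift was thus smaller without experiment 3. ATRA and experiment cannot be told apart, because each experiment had a single treatment.

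The members furthest down in this comparison were the 14-gene H4 probe set 214516_at (-0.65), H3C7 (-0.51), the 5-gene H2B probe set 214455_at (-0.46), the H2AC19 and H2AC18 pair (214290_s_at, -0.43) and H3C4 with H2AC7 (214522_x_at, -0.40). Those furthest up were 207156_at (0.75), H2BC21 (0.31), H2AC15 (0.30), H2AC25 (221582_at, 0.27) and H4C4 (0.25). Each had an adjusted p of 0.995 with limma.

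Experiments 3 and 1 carry the same ATRA label. In experiment 3, 30 of the 68 clustered histone probe sets were lower than in experiment 1 and 6 were higher, while 53 lay below 0 and 15 above it, counting those that missed the test. With limma and the siRNA as a covariate, 36 of 68 members passed (52.9%, against 26.6% of all probe sets), with 44.1% lower (against 11.9%) and 8.82% higher (against 14.7%). Of the 52 members that were not dim, 29 were lower (55.8%, against 19.0% of such probe sets) and 6 higher (11.5%, against 24.6%). The median difference was -0.20 over members and 0.00 over all probe sets, and -0.31 over the 52 members that were not dim. The p-values rest on the arrays within experiments and not on repeats of each experiment, and the control gaps given above moved with the same 2 arrays; their part in the result was not tested. In a bulk culture, fewer cells in S phase, less histone RNA per cell and a technical difference of these 2 arrays cannot be told apart.

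The shift was present on both kinds of array. The median over members was -0.26 between the siRNA arrays of experiments 3 and 1 and -0.19 between their scrambled RNA arrays, against 0 over all probe sets for both. Members that name 1 gene were lower in 18 of 48 cases (37.5%) and higher in 5, and those that name several genes were lower in 12 of 20 cases (60.0%) and higher in 1. By position, 23 of the 57 members on chromosome 6 alone were lower and 4 higher, and of the 6 on chromosome 1 alone 3 were lower and 2 higher. Over all probe sets, 11.9% were lower and 14.7% higher. Both arrays of experiment 3 lay below the other 4 for 39 members (57.4%, against 22.4% of all probe sets) and above them for 8 (11.8%, against 22.7%).

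**Figure D3:**
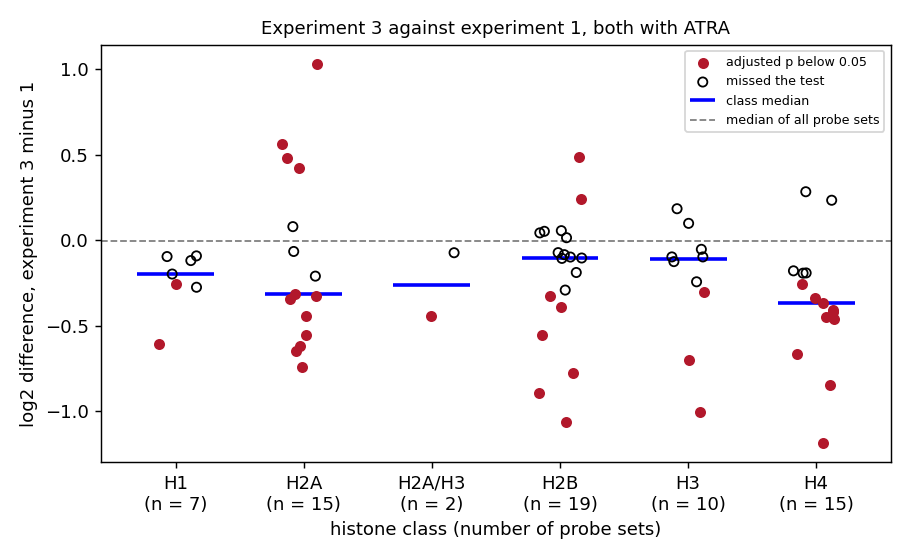
Log2 difference of experiment 3 minus experiment 1 for each of the 68 members by histone class, with filled points where the adjusted p was under 0.05, blue bars at the class medians and a dashed line at the median of all probe sets. The H4 points lie mostly below the line (median -0.37, 10 of 15 lower), and the H2A class holds 4 of the 6 members that were higher.

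Of the 7 linker histone H1 probe sets, 2 were lower and none was higher, with a median of -0.20. H1-4 had 6.25 with siRNA and 6.19 with scrambled RNA in experiment 3, against 6.83 with siRNA and 6.83 with scrambled RNA in experiment 1, and 6.84 with siRNA and 6.86 with scrambled RNA in experiment 2. Its experiment 3 values lay below the other 4, with a difference from experiment 1 of -0.61 (SE 0.08, adjusted p = 6.33e-04). H1-2 had 13.02 with siRNA and 13.05 with scrambled RNA in experiment 3, against 13.31 with siRNA and 13.26 with scrambled RNA in experiment 1, and 13.38 with siRNA and 13.32 with scrambled RNA in experiment 2, a smaller drop in which the experiments still did not overlap, at -0.26 (SE 0.05, adjusted p = 0.00479). H1-3 missed the test at -0.27 (adjusted p = 0.0597), and H1-1, H1-5 and both probe sets of H1-6, a testis linker histone, lay between -0.20 and -0.09 and missed it too.

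Among the 15 H2A probe sets, 8 were lower and 4 higher, and the class had both signs at sizes far above its SEs. H2AC17 had 7.58 with siRNA and 7.82 with scrambled RNA in experiment 3, against 8.38 with siRNA and 8.50 with scrambled RNA in experiment 1, and 8.21 with siRNA and 8.34 with scrambled RNA in experiment 2. Both experiment 3 arrays were the lowest, at -0.74 (SE 0.07, adjusted p = 1.31e-04) against experiment 1. H2AC8 had 8.35 with siRNA and 8.50 with scrambled RNA in experiment 3, against 9.08 with siRNA and 9.05 with scrambled RNA in experiment 1, and 9.09 with siRNA and 9.03 with scrambled RNA in experiment 2, also without overlap, at -0.65 (SE 0.07, adjusted p = 3.23e-04). The H2AC19 and H2AC18 genes are adjacent copies, and 2 of their 3 probe sets were lower, 214290_s_at at -0.62 and 218280_x_at at -0.55, while the third (218279_s_at) was at 0.08 and missed the test.

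H2AC6 went the other way. It had 11.83 with siRNA and 11.46 with scrambled RNA in experiment 3, against 11.16 with siRNA and 11.00 with scrambled RNA in experiment 1, and 11.40 with siRNA and 11.23 with scrambled RNA in experiment 2. The 2 arrays of experiment 3 were the highest of the 6, at 0.56 (SE 0.07, adjusted p = 4.06e-04) against experiment 1, and experiment 1 lay below experiment 2 by a difference of -0.23 that missed the test (adjusted p = 0.309). The probe set 207156_at, which names H2AC11, H2AC12, H2AC13, H2AC15, H2AC16 and H2AC17, had 9.48 with siRNA and 9.69 with scrambled RNA in experiment 3, against 8.49 with siRNA and 8.61 with scrambled RNA in experiment 1, and 8.20 with siRNA and 8.43 with scrambled RNA in experiment 2. This was the member furthest up, at 1.03 (SE 0.07, adjusted p = 1.81e-05). The other 2 were H2AC15 (239041_at) at 0.42 (SE 0.08, adjusted p = 0.00428) and H2AC25 (231681_x_at) at 0.48 (SE 0.10, adjusted p = 0.00567).

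Of the 19 H2B probe sets, 6 were lower and 2 higher, with a median of -0.10. The probe set 210387_at of H2BC11 and H2BC8 had 8.38 with siRNA and 8.78 with scrambled RNA in experiment 3, against 9.55 with siRNA and 9.75 with scrambled RNA in experiment 1, and 9.17 with siRNA and 9.32 with scrambled RNA in experiment 2. It was lowest in experiment 3 and highest in experiment 1, at -1.06 (SE 0.08, adjusted p = 3.14e-05) between them. H2BC15 had 7.23 with siRNA and 7.21 with scrambled RNA in experiment 3, against 8.02 with siRNA and 8.21 with scrambled RNA in experiment 1, and 8.08 with siRNA and 8.13 with scrambled RNA in experiment 2, with both arrays of experiment 3 below the other 4, at -0.89 (SE 0.08, adjusted p = 8.25e-05). The 5-gene probe set 214455_at, which names H2BC4, H2BC6, H2BC7, H2BC8 and H2BC10, was lower too, at -0.78 (SE 0.06, adjusted p = 5.76e-05).

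The 2 H2B members that were higher were H2BC21 and H2BC12. H2BC21 had 8.59 with siRNA and 8.32 with scrambled RNA in experiment 3, against 8.02 with siRNA and 7.91 with scrambled RNA in experiment 1, and 7.97 with siRNA and 7.82 with scrambled RNA in experiment 2. All values of experiment 3 were above the others, at 0.49 (SE 0.07, adjusted p = 0.00144). H2BC12 had 13.69 with siRNA and 13.61 with scrambled RNA in experiment 3, against 13.42 with siRNA and 13.39 with scrambled RNA in experiment 1, and 13.44 with siRNA and 13.40 with scrambled RNA in experiment 2, a small step without overlap at 0.24 (SE 0.05, adjusted p = 0.00484). Its adjusted p was 0.0531 when the intensity trend was left out of the fit. For H2BC5, H2BC6, H2BC11 and H2BC17, whose own probe sets were not dim, the differences lay between -0.10 and 0.06 and missed the test. Probe sets of several genes name some of these too. H2BC11 is among the genes of 210387_at (-1.06). H2BC6 is among those of 214455_at (-0.78) and of 208490_x_at (-0.11).

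H3 had 3 of 10 probe sets lower and none higher, with 4 of the 10 dim. H3C7 had 5.48 with siRNA and 5.56 with scrambled RNA in experiment 3, against 6.53 with siRNA and 6.52 with scrambled RNA in experiment 1, and 6.53 with siRNA and 6.54 with scrambled RNA in experiment 2. The other 4 arrays lay within a narrow band and experiment 3 below it, under the median of all values, at -1.003 (SE 0.08, adjusted p = 6.00e-05). H3C2 showed the same order, with 6.24 with siRNA and 6.29 with scrambled RNA in experiment 3, against 6.97 with siRNA and 6.95 with scrambled RNA in experiment 1, and 7.01 with siRNA and 7.01 with scrambled RNA in experiment 2, at -0.70 (SE 0.08, adjusted p = 2.74e-04). H3C8 was lower at -0.30, and the 10-gene probe set 206110_at missed the test at 0.18 (adjusted p = 0.0607).

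H4 was the class with the highest share of lower members, 10 of 15, with a median of -0.37 and none higher. H4 has no common replacement variant, and 5 of its probe sets name the same 14 genes. The one with the largest drop, 214516_at, had 5.28 with siRNA and 5.46 with scrambled RNA in experiment 3, against 6.62 with siRNA and 6.50 with scrambled RNA in experiment 1, and 6.60 with siRNA and 6.64 with scrambled RNA in experiment 2. Both arrays of experiment 3 lay below the median of all values and the other 4 above it, at -1.19 (SE 0.10, adjusted p = 5.44e-05). The probe set 205967_at had 12.30 with siRNA and 12.50 with scrambled RNA in experiment 3, against 13.28 with siRNA and 13.22 with scrambled RNA in experiment 1, and 13.22 with siRNA and 13.23 with scrambled RNA in experiment 2, without overlap, at -0.85 (SE 0.07, adjusted p = 4.36e-05). The remaining 3 of these 5 lay at -0.41, -0.37 and -0.18, and the last of them missed the test.

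Single-gene H4 probe sets were also lower for H4C8 (-0.66 and -0.26 on its 2 probe sets), H4C5 (-0.46), H4C1 (-0.45), H4C11 (-0.42) and H4C9 (-0.34). H4C4 stood on the other side of 0, with 6.66 with siRNA and 6.74 with scrambled RNA in experiment 3, against 6.46 with siRNA and 6.38 with scrambled RNA in experiment 1, and 6.44 with siRNA and 6.17 with scrambled RNA in experiment 2. Its experiment 3 arrays were the highest, at 0.28 against experiment 1 (adjusted p = 0.0725), which missed the test, and 0.40 against experiment 2 (adjusted p = 0.0169), which passed.

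Probe sets of the same gene or gene group did not always move together. Of 12 genes or gene groups named in full by more than 1 probe set, 7 had probe sets on both sides of 0 in experiment 3 against 1. This counts those that missed the test. Probe sets whose gene lists overlap only in part were not set against each other here. Both H2AC25 probe sets passed the test with opposite signs: 221582_at had 10.10 with siRNA and 10.36 with scrambled RNA in experiment 3, against 10.48 with siRNA and 10.63 with scrambled RNA in experiment 1, and 10.10 with siRNA and 10.14 with scrambled RNA in experiment 2. It was highest in experiment 1 and lower in experiment 3, at -0.32 (adjusted p = 0.00798), where 231681_x_at was higher. The same 6 H2A genes gave 1.03 on 207156_at and -0.31 on 214542_x_at, and both passed the test. A value therefore belongs to a probe set, and the gene's total was not measured. Which part of a transcript, or which related genes, each probe set reads was not examined.

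Many H2A and H2B genes stand head to head and share the DNA between them. In the RefSeq windows, 13 head-to-head pairs of clustered genes had starts within 1000 bases of each other. Of these, 11 were H2A with H2B and 2 were H3 with H2B. H3C4 and H2AC7 are each paired with H2BC7 at 223 bases, so those pairs cover the same DNA. A probe set for each gene alone was there for 5 of the 13 pairs. The pairs were picked for description after their values were seen. H2AC6 and H2BC4 start 246 bases apart, so that the H2AC6 window printed above also holds most of the H2BC4 promoter. H2AC6 was higher in experiment 3 than in experiment 1 (0.56), whereas H2BC4 had 8.13 with siRNA and 7.81 with scrambled RNA in experiment 3, against 8.32 with siRNA and 8.21 with scrambled RNA in experiment 1, and 8.16 with siRNA and 8.20 with scrambled RNA in experiment 2. The H2BC4 difference was -0.29 and just missed the test (adjusted p = 0.0505), with its arrays of experiment 3 below the other 4.

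H2AC15 and H2BC15 start 194 bases apart, and the H2BC15 window above covers the region between them. H2AC15 (239041_at) had 6.81 with siRNA and 6.93 with scrambled RNA in experiment 3, against 6.39 with siRNA and 6.50 with scrambled RNA in experiment 1, and 6.33 with siRNA and 6.38 with scrambled RNA in experiment 2, so experiment 3 was the highest, while H2BC15 was lower by the values given above. Both passed, with opposite signs (0.42 and -0.89), although a second, dim H2AC15 probe set was at -0.07 and missed the test. H2AC17 and H2BC17, 240 bases apart, were at -0.74 and 0.04, of which the H2BC17 value missed the test. H2AC14 and H2BC14, 245 bases apart, were at -0.44 and -0.19, the dim H2BC14 missing the test. H3C7 and H2BC9, 979 bases apart, were both lower, at -1.003 and -0.33. The difference between the genes of a pair was not tested.

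**Figure D4:**
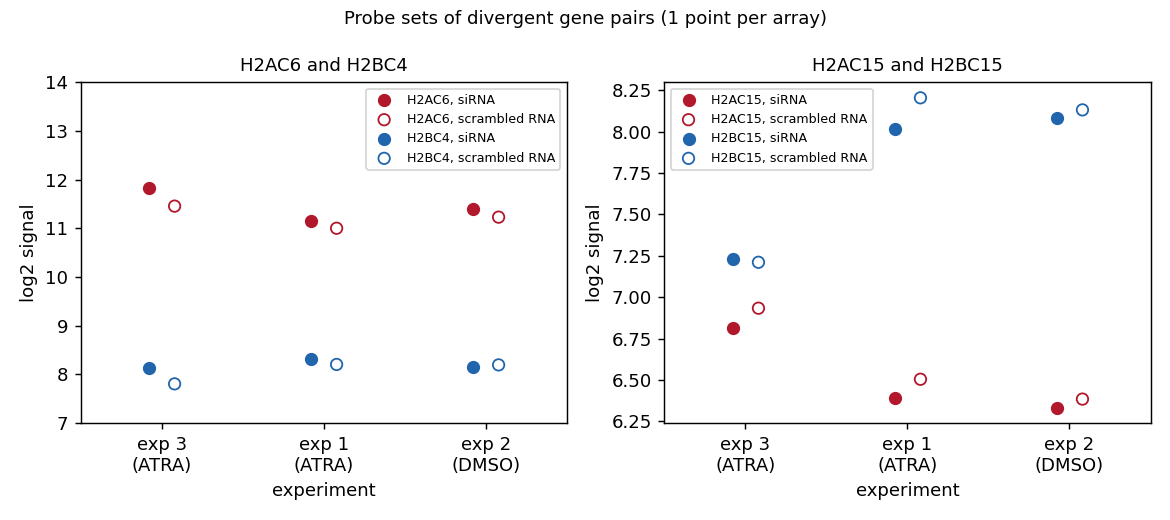
Log2 signal on each of the 6 arrays for 2 head-to-head gene pairs, H2AC6 with H2BC4 and H2AC15 (239041_at) with H2BC15, with filled points for siRNA and open points for scrambled RNA. In experiment 3 the H2A gene of each pair is at its highest and the H2B gene holds its lowest value; levels of different probe sets are not comparable.

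The comparison of experiment 3 with experiment 2, the DMSO experiment, shares the arrays of experiment 3 with the one above. Here 32 members were lower (47.1%, against 13.0% of all probe sets) and 7 higher (10.3%, against 16.7%), with a median of -0.27. H2BC21 was at 0.56, H2AC6 at 0.33, H3C7 at -1.01 and the H4 probe set 214516_at at -1.24. Between experiments 1 and 2, which differ in treatment and were alike in their control gaps, 0 members passed, against 0.375% of all probe sets, and 9 had an unadjusted p under 0.05 (13.2%, against 8.87%). Closest to the threshold were H2AC25 (221582_at), at 0.43 (adjusted p = 0.0535), and H2BC11 with H2BC8 (210387_at), at 0.40 (adjusted p = 0.106). H2AC6 was at -0.23. The median over members was -0.05.

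Genes that work with the clustered histones were read from lists, with 1 probe set a gene. For the siRNA, 0 genes of these lists passed the test. In experiment 3 against experiment 1, S phase DNA replication genes were mostly higher, with a median of 0.30. Of 44, 28 rose (63.6%, against 19.4% of all genes) and 2 fell (4.55%, against 10.1%). None of the 44 was dim, and over all probe sets that were not dim 24.6% were higher and 19.0% lower. POLA1, a subunit of the polymerase that starts DNA strands, was at 0.91. RRM2, the ribonucleotide reductase subunit made in S phase, was at 0.69, and UHRF1 and RFC3, which serve DNA methylation upkeep and clamp loading, were at 0.66 and 0.60. The 2 that fell were GINS4, at -1.31, and PRIM1, at -0.26, while PCNA was at -0.08 and missed the test. The replication genes and the clustered histone probe sets thus had medians on opposite sides of 0 on the same arrays.

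**Figure D5:**
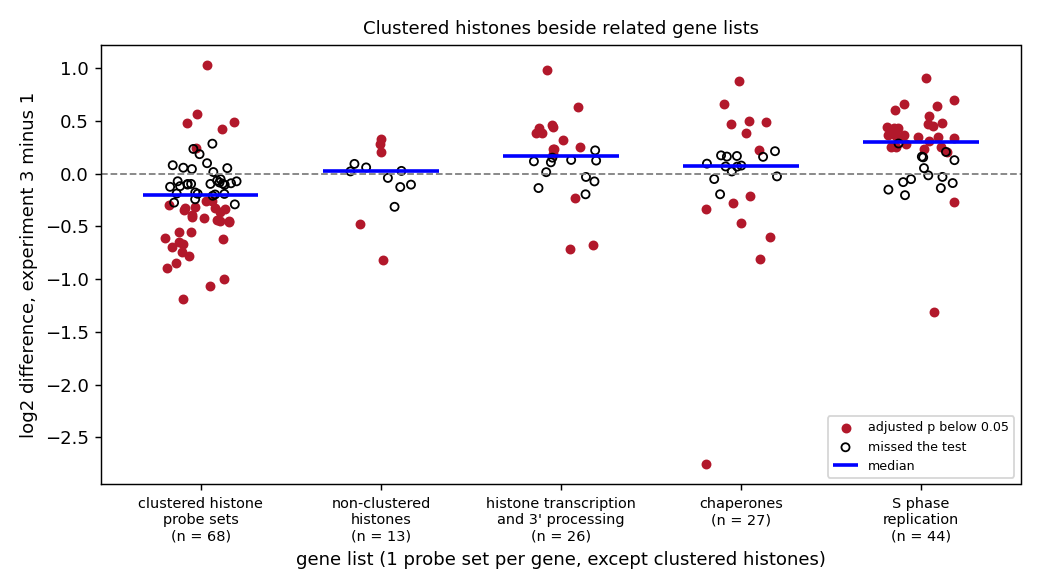
Log2 difference of experiment 3 minus experiment 1 for the 68 clustered histone probe sets and for 4 gene lists (1 probe set a gene), with filled points where the adjusted p was under 0.05 and blue bars at the medians. The clustered histones have a median of -0.20 and the S phase replication genes one of 0.30.

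Replacement and other non-clustered histone genes are expressed throughout the cell cycle for the most part. Of 13 measured, 3 were higher (23.1%, against 19.4% of all genes) and 2 lower (15.4%, against 10.1%), with a median of 0.02. H2AX, the variant marked at DNA breaks, was at 0.33 on the probe set used, but at -0.43 on 212525_s_at, which also passed (adjusted p = 0.0231), and at 0.22 and -0.04 on 2 others that missed the test. H2AZ2 was at 0.28 on the probe set used and at -0.69 on 202487_s_at, and both passed. CENPA, the centromeric H3 variant, was at -0.82 and H2AJ at -0.48. Histone chaperones and assembly factors were split, with 7 of 27 higher (25.9%, against 19.4% of all genes) and 7 lower (25.9%, against 10.1%). None of the 27 was dim, and over all probe sets that were not dim 24.6% were higher and 19.0% lower. UBN1, a subunit of the chaperone complex for the variant H3.3, was at -2.75 on the probe set used and at -0.05 on a second one that missed the test. SET, a chaperone with several probe sets, was at -0.81 on one and 0.57 on another, both past the test. ATRX was at 0.66 on the probe set used and at 0.31 on 208860_s_at. It was at -2.94 on 208859_s_at and at -1.53 on 211022_s_at, and each of these passed. IPO4 was at 0.88.

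The list of histone gene transcription and histone mRNA 3' end processing had 26 measured genes. In experiment 3 against experiment 1, 12 were higher (46.2%, against 19.4% of all genes) and 3 lower (11.5%, against 10.1%). Of the 26, 25 were not dim, and over all probe sets that were not dim the shares were 24.6% and 19.0%. NCBP1, which binds the RNA cap, was at 0.98 on the probe set used and at -0.06 on a second one that missed the test. ZNF473, a zinc finger protein of histone pre-mRNA processing, was at 0.63, and CCNE1, cyclin E, at 0.46, while the elongation kinase CDK9 was at -0.67. A second, dim CCNE1 probe set, 242105_at, was at 0.11 and missed limma's test (adjusted p = 0.597). SLBP stayed between 11.39 and 11.49 on all 6 arrays, with a difference of 0.01 that missed the test (adjusted p = 0.907).

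ERI1, the exonuclease that binds the stem-loop at the end of histone mRNAs and trims it, was the 1 gene of this list past the test in experiment 1 against experiment 2, and it passed in experiment 3 against experiment 2 as well. Its probe set 226416_at had 9.62 with siRNA and 9.63 with scrambled RNA in experiment 3, against 9.29 with siRNA and 9.10 with scrambled RNA in experiment 1, and 8.37 with siRNA and 8.29 with scrambled RNA in experiment 2. The 4 ATRA arrays did not overlap with the 2 DMSO arrays, and the differences from experiment 2 were 1.29 for experiment 3 (adjusted p = 7.03e-06) and 0.86 for experiment 1 (adjusted p = 0.00368). A second probe set, 231852_at, had 7.59 with siRNA and 7.43 with scrambled RNA in experiment 3, against 7.48 with siRNA and 7.05 with scrambled RNA in experiment 1, and 6.35 with siRNA and 6.41 with scrambled RNA in experiment 2, with the same order of experiments and differences of 1.13 and 0.89 from experiment 2 that both passed (adjusted p = 1.23e-04 and 0.0216). In the test that treats the experiment as the replicate, the differences between ATRA and DMSO were 1.08 and 1.01 with an adjusted p of 0.995 for both, so ERI1 was not shown to follow ATRA.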

How the data were processed

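RNA from 6 K562 samples was measured, 1 array each. The authors deposited log2 expression values. Per the series' design text they ran the RMA algorithm in their array software, and the submitters' processing notes name RMA too, without a version. The platform annotation named 1 gene for 41091 probe sets and several for 1801, and 11721 were not listed in it. Probe sets were tested with limma (version 3.58.1, R 4.3.3), using an eBayes fit with a trend on intensity. The tests covered all 54613 probe sets without controls, with Benjamini-Hochberg adjustment and a threshold of 0.05. The fits were also run on simulated data, which had the spread within experiments and no differences between experiments beyond the changes put in. That run does not show how the fits behave where experiment 3 stands apart. Residual degrees of freedom were 3 for the siRNA, 2 within ATRA and between experiments, and 1 for ATRA against DMSO. The labels mark the experiments as independent, and they pair the samples: across probe sets, the correlation of an siRNA array's deviation from its group mean with that of the scrambled array was 0.703, 0.772 and 0.879 inside an experiment. It was 0.530 and 0.594 across experiments 1 and 2, and lay from -0.785 to -0.693 where only one array was of experiment 3. The labels do not say whether the 3 experiments used separate cultures throughout.

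The members, the gene lists and the tests were chosen with earlier results of these data known. The text names members past the threshold, up to 6 in each direction, the members of each class with the highest mean, the 5 furthest up and down with the same sign throughout, and up to 4 genes of each list by smallest p; other members are named for completeness. Alternatives were another normalization, centring, a filter on dim probe sets, 1 probe set per gene, no trend, the block and leaving out each experiment. The small number of arrays limits precision.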

Additional observations from a re-analysis of the deposited data

How the results depend on the processing

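No result changed sign past its threshold under the alternatives tried. With the replicate block, the siRNA count stayed at 0 of 68. Leaving out 1 experiment at a time, the median siRNA difference over members ranged from -0.019 to 0.033, that within ATRA from -0.020 to 0.047, and the difference of siRNA effects from -0.040 to 0.021; in each case the highest value came without experiment 3. Without dim probe sets the median was -0.31 for experiment 3 against 1 and -0.34 against 2. Experiment 1 against 2 went from 0 called members to 1, H2AC25 (221582_at), without dim probe sets, with 1 probe set per gene and with arrays centred on their median. Leaving out experiment 1 or 3 left no residual degrees of freedom within ATRA, for the difference of siRNA effects and for ATRA against DMSO, so no test was run there. Quantile normalization and the fit without the trend moved no count by more than 1.5 times.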
